A study of Mus musculus with 10 samples.

Results

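Heat shock proteins and their DnaJ co-chaperones were compared among 3 regions of the mouse heart, the right ventricle (RV), the wall of the left ventricle (LV) and the septum between both (Septum). Members were the array probes whose transcript accession maps to a gene of the Hspa, Hspb, Hsp90, Dnaja, Dnajb or Dnajc series, or to Hspd1, Hspe1, Hsph1, Hsf1, Hsf2 or Bag3. The rule used names and no measured value. It found 128 of 56605 probes, which stood for 74 of the 22907 genes that could be named. No probe was matched to Dnajb5 by accession. All groups were untreated C57BL/6N mice, a standard inbred strain, and the labels give neither age nor sex. Each group was bulk tissue, with 4 arrays of RV, 3 of LV and 3 of Septum, and different animals served for each experiment, but no animal was named for any array, so that the p-values below measure the spread between these arrays. In bulk tissue, fewer cells of a type and less RNA per cell cannot be told apart.

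Chaperones of the Hsp70 family bind unfolded stretches of protein and release them in a cycle driven by ATP. DnaJ proteins bring clients to Hsp70 and start that cycle, Hsp110 proteins and Bag3 exchange the nucleotide, and Hsp90 acts later on a narrower set of clients. Small heat shock proteins hold unfolded proteins without ATP and are abundant in heart muscle, where sarcomere proteins are under mechanical load. In mitochondria, Hspa9 pulls in and folds imported proteins, and Hspd1 and Hspe1 form the folding chamber. Heat shock factor 1 (Hsf1) induces many of these genes under stress by binding the heat shock element, a run of alternating inverted units in the promoter.

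Promoter sequences are shown for Hspb7 and Dnaja3, which were called between RV and LV, and for the neighbouring Hsp70 genes of chromosome 17. Those of Hspe1 and Dnajb6 are also shown, because they hold a match to the strict heat shock element defined below. All of these sequences are the 250 bases before the annotated start of transcription in RefSeq (mouse build GRCm38.p6). They are written from 5′ to 3′ on the gene's own strand. The arrays did not measure binding at them. A strict heat shock element was searched for as GAANNTTCNNGAA or its reverse complement TTCNNGAANNTTC, in windows that run from 250 bases before the start to 50 bases after it. Of the 74 members 59 had such a window, and the element was found in 4 of them, namely Hspd1, Hspe1, Dnajb6 and Hsph1. The windows of Hspa1a and Hspa1b held no match. The search allowed no mismatch within the units, so a window without a match may still hold an imperfect element. Over all 27025 genes with a window the share was 0.662%. Hspd1 and Hspe1 lie head to head, so their windows overlap and hold the same pair of overlapping matches. In Hsph1 the match lay after the annotated start, and it is not printed. In the sequences of Hspe1 and Dnajb6 the capitals mark the matches. In those of Hspa1a and Hspa1b, the inducible Hsp70 genes, the capitals mark the 3 bases of 250 that differ between them. Hspa1l lies next to Hspa1a in the opposite direction, with 547 bases between the starts. Hspb7, Dnaja3 and Hspa1l are shown without capitals.
Hspb7 (chr4:141420529-141420778, plus strand): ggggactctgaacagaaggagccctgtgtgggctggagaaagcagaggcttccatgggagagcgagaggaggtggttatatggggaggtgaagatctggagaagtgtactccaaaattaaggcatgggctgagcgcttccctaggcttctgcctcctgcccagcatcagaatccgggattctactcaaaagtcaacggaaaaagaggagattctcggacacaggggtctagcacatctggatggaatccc
Dnaja3 (chr16:4683820-4684069, plus strand): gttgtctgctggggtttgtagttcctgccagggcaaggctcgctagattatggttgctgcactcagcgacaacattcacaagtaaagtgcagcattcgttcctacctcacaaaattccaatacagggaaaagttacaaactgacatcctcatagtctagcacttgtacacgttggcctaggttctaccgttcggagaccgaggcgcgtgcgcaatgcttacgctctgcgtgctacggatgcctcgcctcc
Hspa1l (chr17:34972453-34972702, plus strand): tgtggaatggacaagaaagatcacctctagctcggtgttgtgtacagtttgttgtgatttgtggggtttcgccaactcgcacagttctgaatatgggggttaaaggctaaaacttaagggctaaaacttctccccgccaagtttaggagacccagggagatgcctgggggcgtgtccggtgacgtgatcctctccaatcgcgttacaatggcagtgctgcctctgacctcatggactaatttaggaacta
Hspa1a (chr17:34972157-34972406, minus strand): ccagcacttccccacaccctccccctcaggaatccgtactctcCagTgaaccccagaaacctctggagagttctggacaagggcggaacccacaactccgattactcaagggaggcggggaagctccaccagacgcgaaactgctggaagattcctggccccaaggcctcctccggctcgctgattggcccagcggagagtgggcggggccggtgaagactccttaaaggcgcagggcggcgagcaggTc
Hspa1b (chr17:34959239-34959488, minus strand): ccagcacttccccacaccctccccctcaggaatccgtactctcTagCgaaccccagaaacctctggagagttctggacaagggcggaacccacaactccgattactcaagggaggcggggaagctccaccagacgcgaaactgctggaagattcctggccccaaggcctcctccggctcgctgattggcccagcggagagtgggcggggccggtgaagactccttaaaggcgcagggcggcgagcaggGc
Hspe1 (chr1:55087898-55088147, plus strand): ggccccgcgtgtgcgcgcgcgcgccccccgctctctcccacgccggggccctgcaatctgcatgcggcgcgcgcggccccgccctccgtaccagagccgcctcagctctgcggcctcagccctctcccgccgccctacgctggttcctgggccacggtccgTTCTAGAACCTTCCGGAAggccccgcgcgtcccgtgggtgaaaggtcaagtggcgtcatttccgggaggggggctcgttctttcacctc
Dnajb6 (chr5:29735648-29735897, plus strand): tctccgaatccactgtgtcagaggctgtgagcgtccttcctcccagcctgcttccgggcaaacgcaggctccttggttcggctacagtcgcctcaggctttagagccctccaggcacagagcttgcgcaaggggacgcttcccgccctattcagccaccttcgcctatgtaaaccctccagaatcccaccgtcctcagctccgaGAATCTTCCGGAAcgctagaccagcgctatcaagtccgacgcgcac

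Each level below is a log2 signal minus the 75th percentile of its array. A level of 0 equals that percentile, and a level can be compared between arrays for 1 probe but not between probes. Of the 74 members 67 had a probe well above background on all arrays of some region, and the brightest such probe stood for the gene. The other 7 were Dnajb3, Dnajb7, Dnajb8, Dnajb13, Dnajc5g, Dnajc6 and Dnajc22. None of the 10 arrays measured Dnajb7, Dnajb13, Dnajc6 or Dnajc22 well above background. Dnajb8, Dnajc5g and Dnajb3 passed on 7, 3 and 1 arrays and were not tested. A member was called when limma's test, adjusted over all 30234 probes well above background, gave an adjusted p under 0.05.

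The arrays lay on 2 slides. Slide 1 held replicates 1 and 2 of each region, and slide 2 held RV replicates 3 and 4 with replicate 3 of LV and of Septum. Many genes differed between the slides, 45.3% of all genes tested, so counts are also given with the slide as a block, and so are the members described below where that block changes the call. The share of spots well above background was between 53.7% and 64.0%. All 14 cardiomyocyte markers, among them Myh6 and Tnnt2, were well above background on all 10 arrays.

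RV had lower levels of most members than LV, by small amounts. The difference was below 0 for 57 of the 67 members, with a median of -0.18 on the log2 scale. Over all genes tested the median was -0.05, and 60.5% of genes were below 0. The calls were 3 members, Hspb7, Hspa9 and Dnaja3, all lower in RV. Of all genes tested, 4.98% were called in this comparison and 1.84% were called lower, 3.14% higher. The 4 RV arrays lay below all 3 LV arrays for 21 members, against 13.3% of all genes, and above all of them for 1, Dnajc10, against 9.18%.

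With the slide as a block, 26 members were called between RV and LV, 23 of them lower in RV, while 21.3% of all genes were called, 12.5% lower and 8.82% higher. With the replicate number as a block, 24 were called and 22 were lower, while 17.9% of all genes were called, 10.6% lower and 7.26% higher. That fit draws the difference from 9 arrays, because RV replicate 4 has a number of its own. The fits shared 20 of these members, among them all 3 of the calls made without a block.

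**Figure D1:**
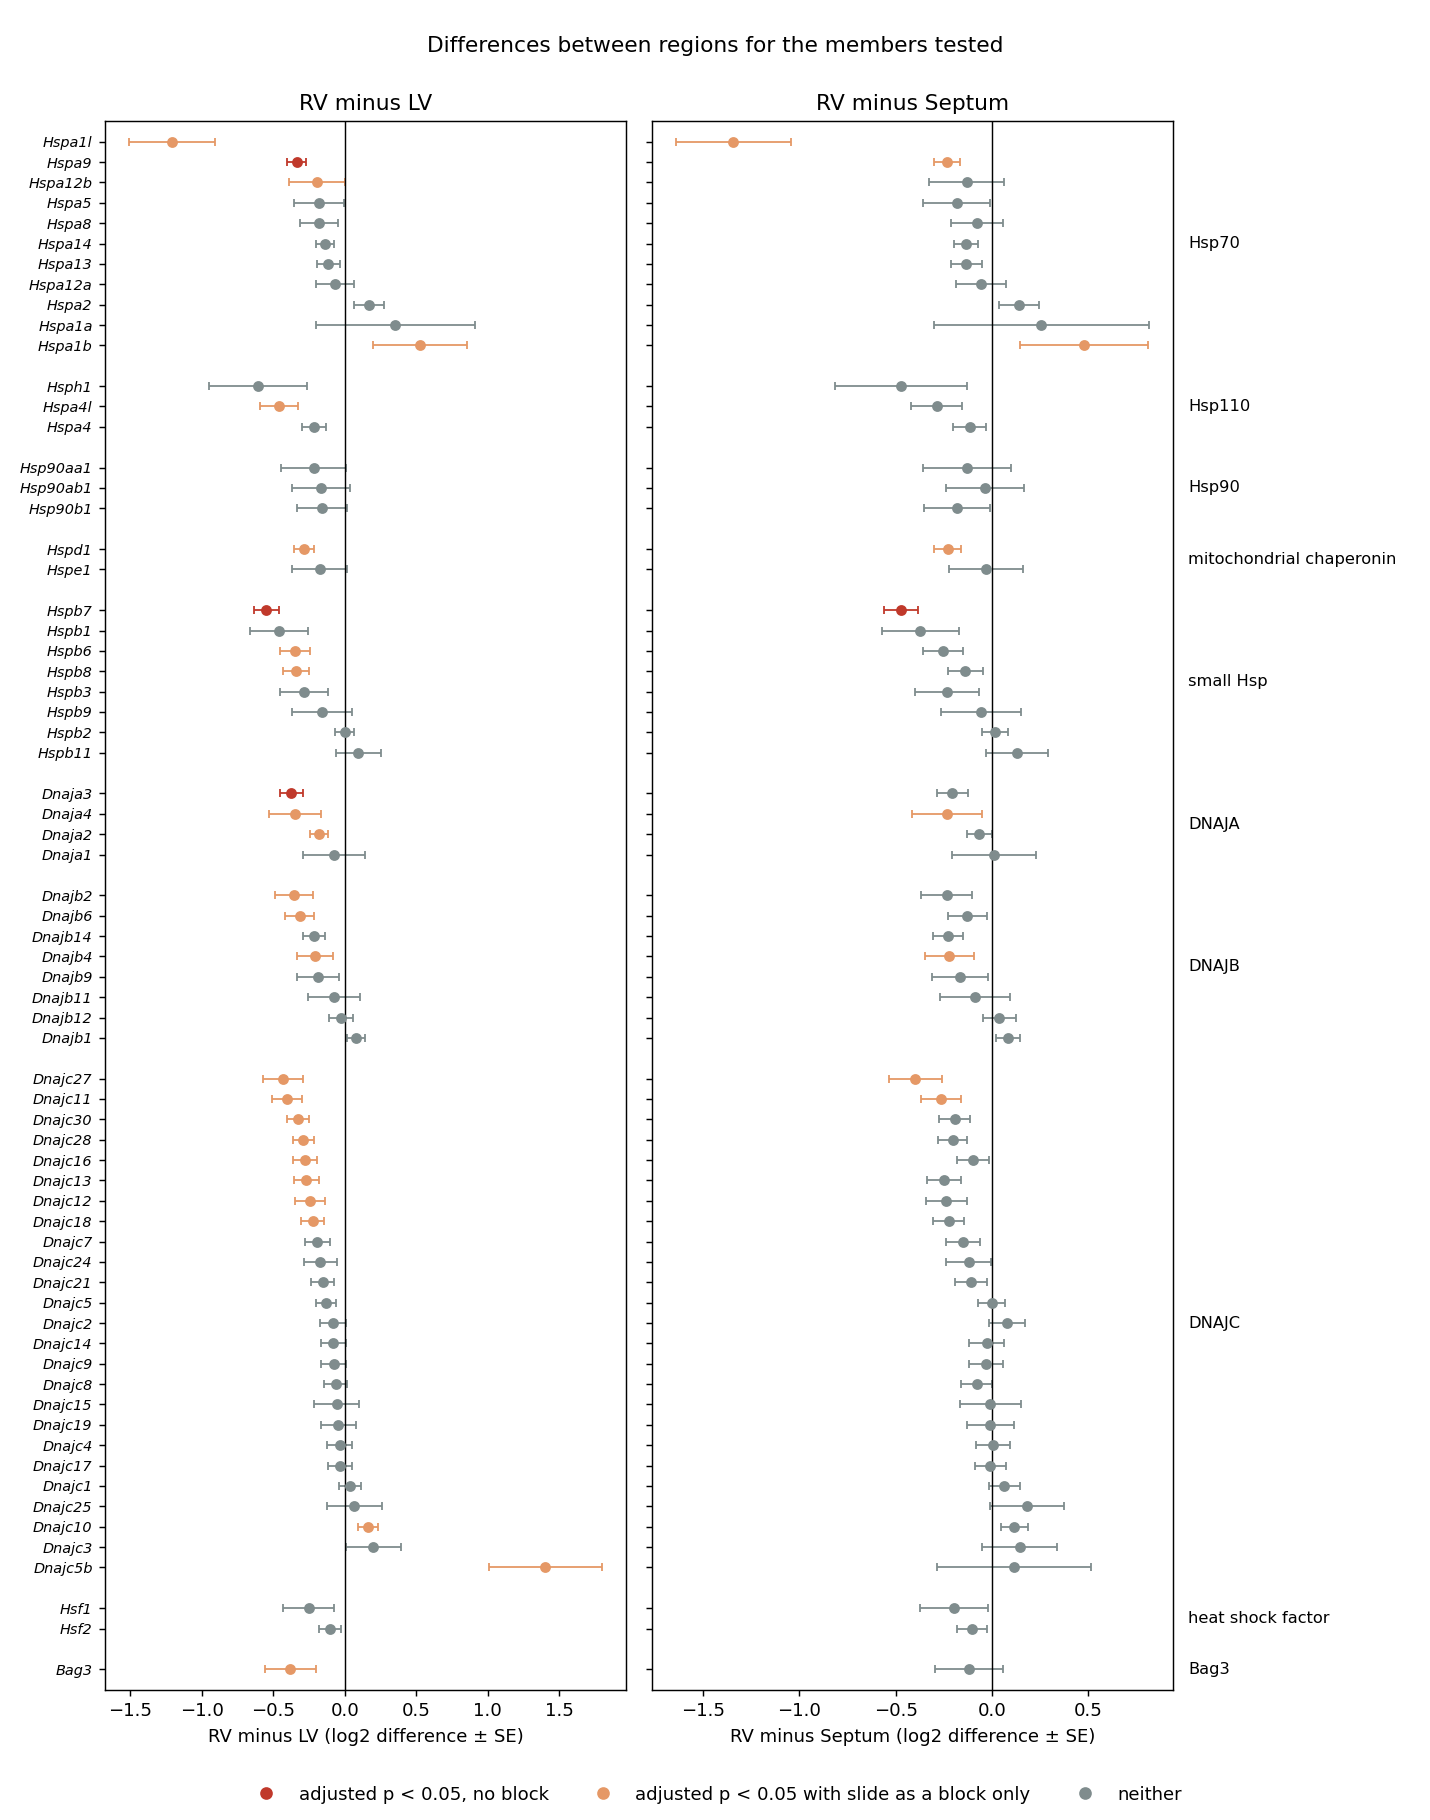
Differences between RV and LV (left) and between RV and Septum (right) for the 67 members tested, as log2 difference ± SE, grouped by family. Red points passed an adjusted p of 0.05 without a block, orange points only with the slide as a block, and grey points in neither fit. Most points lie to the left of 0 in both panels, Hspa1l lies farthest to the left in both, and Dnajc5b lies farthest to the right against LV.

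Small heat shock proteins showed the clearest single difference. Hspb7, a small heat shock protein of heart and skeletal muscle, was at 8.52, 8.63, 8.82 and 8.70 in RV. It was at 9.22, 9.20 and 9.23 in LV, and at 9.02, 9.19 and 9.21 in Septum. All 4 RV arrays lay below every LV and Septum array, and the LV arrays lay close together. RV was lower than LV by a log2 difference of -0.55 ± 0.09 (SE), 1.46-fold, with an adjusted p of 0.0115. RV was lower than Septum by -0.47 ± 0.09, with an adjusted p of 0.0300. Hspb7 was also the only member called by the F test among the 3 regions (adjusted p = 0.0171), while 3.67% of all genes were called. A slide block raised this to 16 members and 15.8% of all genes, and a replicate block gave 14 members and 10.9%. Its other probe gave -0.72 and -0.59 in the same comparisons, with adjusted p-values of 0.0514 and 0.139. The difference from LV was -0.64 on slide 1 and -0.47 on slide 2. With the slide as a block its adjusted p was 0.0020 against LV and 0.0047 against Septum. The call against LV was lost in 4 alternatives. Among them were the fit without LV replicate 1 (adjusted p = 0.0512), scaling of arrays by their median (0.0529) and the fit with no filter. The call against Septum was lost in 12 alternatives. They include the fits without RV replicate 1, 2 or 4, LV replicate 1 or 2, or Septum replicate 2 or 3 (adjusted p between 0.0561 and 0.141). They also include scaling by the median (0.187), no filter and the mean of probes.

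Of the 8 small heat shock proteins 7 were below 0 in RV against LV, with a median of -0.31. Hspb6, which is phosphorylated on adrenergic stimulation of the heart, was at 7.33, 7.30, 7.31 and 7.35 in RV, at 7.55, 7.61 and 7.85 in LV and at 7.39, 7.58 and 7.75 in Septum. The RV arrays lay close together and below all the others, and the difference from LV was -0.35 ± 0.10. Hspb8, which works with Bag3 in the removal of damaged filament proteins, was at 5.08, 5.02, 5.35 and 5.26 in RV and at 5.54, 5.50 and 5.53 in LV. Its difference was -0.34 ± 0.09, and its Septum arrays, at 5.22, 5.36 and 5.36, overlapped with RV. Neither was called without a block (adjusted p = 0.0963 and 0.0763), and both passed once the slide was a block (0.0141 and 0.0112). Hspb1, the best known stress-regulated member, had a difference of -0.46 ± 0.20 from LV with overlapping arrays, and was called only with the replicate number as a block (adjusted p = 0.0231). Hspb2, a muscle form, differed by -0.0014 ± 0.07, and Hspb11, a protein of the intraflagellar transport complex, by 0.10 ± 0.16.

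**Figure D2:**
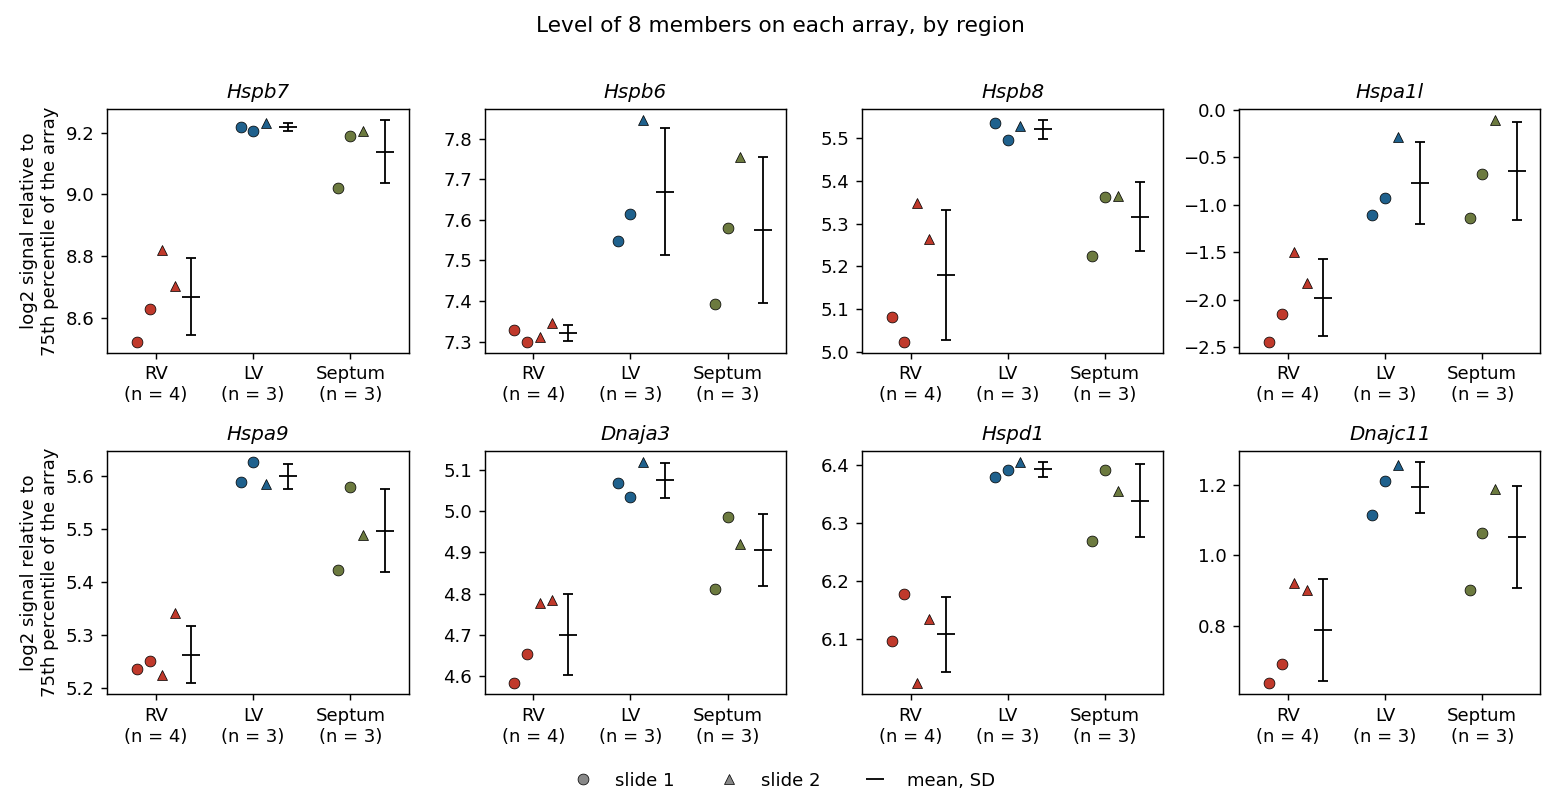
Levels of 8 members on each array (log2 signal relative to the 75th percentile of the array), with RV in red, LV in blue and Septum in green, slide 1 as circles and slide 2 as triangles, and the mean with its SD beside each group. The 4 RV points lie below the 3 LV points in each of the 8 panels, as they do for 21 of all 67 members. The Septum points lie near LV or between both ventricles, but overlap with RV for Hspb8 and Dnajc11.

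Mitochondrial chaperones held the other calls. All 10 members of this compartment were below 0 in RV against LV, with a median of -0.29, and RV lay below LV without overlap for 6 of them, against 13.3% of all genes. Members were sorted by compartment after their values were seen, so these counts describe the group and test nothing. Hspa9, the mitochondrial Hsp70, was at 5.23, 5.25, 5.22 and 5.34 in RV, at 5.59, 5.63 and 5.58 in LV and at 5.42, 5.58 and 5.49 in Septum. Each RV array lay below each LV and Septum array, and the difference from LV was -0.34 ± 0.07 (adjusted p = 0.0312). The dimmer probe of Hspa9 gave -0.28, with an adjusted p of 0.148. Dnaja3, the DnaJ partner of Hspa9 in the mitochondrial matrix, was at 4.58, 4.65, 4.78 and 4.78 in RV, at 5.07, 5.03 and 5.12 in LV and at 4.81, 4.99 and 4.92 in Septum. The regions were in the order RV, Septum, LV without overlap, and the difference of RV from LV was -0.37 ± 0.08 (adjusted p = 0.0359). The call of Hspa9 was lost without any 1 of the RV or LV arrays (adjusted p up to 0.123), and that of Dnaja3 without any 1 array other than RV replicate 3 or Septum replicate 1 (up to 0.114). Under quantile normalization they were 0.0801 and 0.0850. Neither was called with scaling by the median or with no filter, and each call was lost in 14 alternatives.

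Hspd1, the large subunit of the mitochondrial folding chamber, was at 6.10, 6.18, 6.02 and 6.14 in RV, at 6.38, 6.39 and 6.41 in LV and at 6.27, 6.39 and 6.35 in Septum. RV lay below both other regions without overlap, and the difference from LV of -0.28 ± 0.07 missed the threshold (adjusted p = 0.0539). Its other probe also gave -0.28. Hspe1, the cap of that chamber, has the promoter window shown above that overlaps with that of Hspd1. Its levels overlapped between the regions, with a difference of -0.18 ± 0.19. Dnajc11, a protein of the complex that shapes the inner membrane, had a difference of -0.40 ± 0.10 (adjusted p = 0.0619), and its dimmer probe, at -0.54, was called (adjusted p = 0.00806). That probe was also called against Septum, at -0.40 (adjusted p = 0.0386). Dnajc30, at -0.33 ± 0.08, and Dnajc28, at -0.29 ± 0.07, had RV arrays below all LV arrays and missed the threshold (adjusted p = 0.0520 and 0.0635). Dnajc15 and Dnajc19, relatives that serve the import motor, differed by -0.06 ± 0.16 and -0.05 ± 0.12, and Dnajc4 by -0.03 ± 0.09. With the slide as a block 6 of the 10 were called, namely Hspa9, Dnaja3, Hspd1, Dnajc11, Dnajc28 and Dnajc30, while 12.5% of all genes were called lower in that fit.

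Among the other Hsp70 genes, neighbours on chromosome 17 had differences of opposite sign. Hspa1l, a Hsp70 known mostly from testis that is not heat-inducible, was at -2.44, -2.15, -1.50 and -1.83 in RV. It was at -1.10, -0.92 and -0.28 in LV and at -1.14, -0.68 and -0.11 in Septum. All RV arrays lay below all the others, and on each slide the gap was wider than the spread within RV. The differences were -1.21 ± 0.30 from LV, 2.31-fold, and -1.34 ± 0.30 from Septum, the largest decreases among the members. They missed the threshold without a block (adjusted p = 0.0585 and 0.0592). With the slide as a block they were -1.33 and -1.46 and passed it (adjusted p = 0.00114 and 0.000790). The replicate number as a block also made them pass (0.00265 and 0.00159). Hspa1a and Hspa1b, the inducible pair, had differences of 0.35 ± 0.56 and 0.53 ± 0.33 from LV and were not called. Hspa1b was at -1.72 and -1.50 in RV on slide 1, against -2.10 and -1.88 in LV and -2.06 and -1.94 in Septum. On slide 2 it was at -0.79 and -0.81 in RV, against -1.21 in LV and -1.04 in Septum. RV was thus higher on both slides, and with the slide as a block Hspa1b was called higher than LV by 0.39 and than Septum by 0.34 (adjusted p = 0.0155 and 0.0390). Hspa1a was higher in RV than in LV on slide 1, by 0.40, and not on slide 2, where the difference was -0.29. A probe of Hspa1a or Hspa1b may capture RNA of both genes. This was not tested, because only the bases before their starts were compared.

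The constitutive Hsp70 proteins differed little. Hspa8, the main Hsp70 of the cytosol, was at 6.57, 6.67, 6.69 and 6.85 in RV and at 6.74, 6.76 and 7.11 in LV. The groups overlapped, with a difference of -0.18 ± 0.13 (adjusted p = 0.522), and its 3 other probes gave values between -0.23 and -0.19. Hspa5, the Hsp70 of the endoplasmic reticulum, had a difference of -0.18 ± 0.17. Hspa2, Hspa12a, Hspa13 and Hspa14 lay between -0.14 and 0.17. Hspa12b, a divergent relative found in endothelium, had a difference of -0.19 ± 0.19 and was called with the slide as a block (-0.27, adjusted p = 0.0495).

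All 3 Hsp110 genes were below 0 in RV against LV, without a call unless a block was fitted. Hspa4l was at 2.0, 2.24, 2.51 and 2.36 in RV and at 2.57, 2.86 and 2.79 in LV, which did not overlap, and its difference was -0.46 ± 0.13 (adjusted p = 0.0911). A slide block gave -0.49 and a call (adjusted p = 0.0236). Its other probes gave -0.43 and -0.44. Hspa4, with a difference of -0.22 ± 0.09, did not overlap either. Hsph1 had one of the largest differences, at -0.61 ± 0.34, with a wide spread in every region. It was at 1.94, 2.81, 2.33 and 2.70 in RV, at 2.37, 3.47 and 3.33 in LV and at 2.27, 3.38 and 3.11 in Septum. Replicate 1 was the lowest array of each region and replicate 2 the highest. Within each number RV was the lowest region, and a replicate block gave a call for Hsph1 against LV, at -0.69 (adjusted p = 0.0158), and against Septum, at -0.56 (adjusted p = 0.0368).

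The 3 Hsp90 genes were not called in any comparison of regions. Hsp90ab1, the constitutive cytosolic form, was at 6.92, 7.11, 7.25 and 7.46 in RV and at 7.004, 7.41 and 7.64 in LV, with a difference of -0.17 ± 0.20. Hsp90aa1, the inducible form, and Hsp90b1, the form of the endoplasmic reticulum, had differences of -0.22 ± 0.23 and -0.16 ± 0.17. Their arrays overlapped between all regions.

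DnaJ proteins also had differences mostly below 0. The 4 members of class A had a median of -0.26, the 8 tested of class B -0.20 and the 25 tested of class C -0.08 against LV. Dnaja2 was at 3.57, 3.56, 3.57 and 3.55 in RV and at 3.73, 3.79 and 3.71 in LV. These levels did not overlap, although the difference was only -0.18 ± 0.07 (adjusted p = 0.166), and a slide block gave a call (adjusted p = 0.0495). Dnaja1, the main partner of Hspa8, had a difference of -0.08 ± 0.22. Dnajb1, the stress-inducible partner of Hsp70, differed by 0.08 ± 0.06. Dnajb4 and Dnaja4 had differences of -0.21 ± 0.13 and -0.35 ± 0.18. Both passed with a slide block against LV (adjusted p = 0.0129 and 0.00904) and against Septum (0.0159 and 0.0417). Dnajb2, with -0.35 ± 0.13, was called with that block against LV alone (adjusted p = 0.0267).

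Dnajb6, which keeps proteins from aggregating and whose promoter window holds the element searched for, was at 3.45, 3.41, 3.73 and 3.64 in RV and at 3.75, 3.99 and 3.88 in LV on its brightest probe. RV lay below LV there, with a difference of -0.32 ± 0.10 (adjusted p = 0.121), and a slide block gave a call (-0.34, adjusted p = 0.0289). The 4 other Dnajb6 probes gave values from 0.03 to 0.12, so the direction depended on the probe. The gene has several transcripts, and which of them each probe detects was not tested. Dnajc27, a Rab-like protein with a J domain, was at -1.06, -0.85, -0.52 and -0.65 in RV and at -0.46, -0.37 and -0.17 in LV. Its difference of -0.43 ± 0.14 was called only with a block (adjusted p = 0.00682 with the slide), and likewise that from Septum, at -0.40 ± 0.14 (0.0129).

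Few members pointed the other way. Dnajc5b, a cysteine-string protein known mostly from testis, had the largest positive difference, 1.40 ± 0.40 (adjusted p = 0.0868). It was dim, at -2.85, -2.98, -4.15 and -3.40 in RV and at -3.94, -4.66 and -5.65 in LV, and the groups overlapped. Only 1 of the 3 LV arrays measured it well above background. It was kept only because all 4 RV arrays measured it well above background, while 2 of the 3 Septum arrays did. RV is also the region where it was highest, so the filter favoured a positive difference. It was called with the slide as a block (1.53, adjusted p = 0.0113), a call that depends on this selection. Dnajc10, a reductase of the endoplasmic reticulum, was at 1.89, 1.88, 1.85 and 1.87 in RV and at 1.73, 1.77 and 1.63 in LV. That difference of 0.16 ± 0.07 was called with the slide as a block (adjusted p = 0.0409). Dnajc3, an inhibitor of the kinase that stops translation under stress of the endoplasmic reticulum, differed by 0.20 ± 0.19. Members of that organelle had a median of -0.11, with 9 of 13 below 0 and no call without a block.

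The regulators were also below 0 in RV against LV, without a call. Bag3 was at 5.59, 5.46, 6.00 and 5.93 in RV and at 5.91, 6.16 and 6.30 in LV, and the groups overlapped, with a difference of -0.38 ± 0.18. It passed with a slide block (-0.45, adjusted p = 0.0210). Hsf1 had a difference of -0.25 ± 0.18 and was called with the replicate number as a block (adjusted p = 0.0403), and Hsf2 had a difference of -0.11 ± 0.08.

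Against Septum, RV was below 0 for 52 of the 67 members, with a median of -0.12, while the median of all genes was -0.04 and 59.1% were below 0. Hspb7 was the single call, and 2.7% of all genes were called, 1.02% lower and 1.68% higher. RV lay below Septum without overlap for 13 members, against 9.04% of all genes, and above it for 2, Dnajb1 and Dnajc10, against 6.95%. A slide block gave 9 calls, against 11.1% of all genes (5.71% lower and 5.35% higher). A replicate block also gave 9, against 8.7% (4.51% lower and 4.19% higher), and 8 of the members were the same. Both fits called Hspb7, Hspa1l, Hspa9, Dnaja4, Dnajb4, Dnajc11 and Dnajc27 lower in RV, and Hspa1b higher. The largest increases without a block, those of Hspa1b, Hspa1a and Dnajc25, were 0.48 ± 0.33, 0.26 ± 0.56 and 0.18 ± 0.19, and none was called.

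Septum and LV were not told apart. No member was called by limma, with the slide or the replicate number as a block or without one, and of all genes 0% were called without a block and 0.0751% with the slide as a block. At an unadjusted p under 0.05 there was 1 member, and 427 of the 14646 genes. The methods' analysis of variance with Tukey's test also called none. The median was -0.05, with 52 of 67 members below 0, while the median of all genes was -0.02 and 58.1% were below 0. The largest decreases, those of Bag3, Hspb8 and Dnajb6, were -0.26 ± 0.19, -0.20 ± 0.10 and -0.19 ± 0.11. Hspb8 and Dnajb6 were among the 7 members whose Septum arrays lay below all LV arrays, against 3.77% of all genes. Dnajc5b, dim in both, differed by 1.29 ± 0.43. The largest increases among members well above background on all 10 arrays were 0.13 ± 0.32 for Hspa1l, 0.10 ± 0.60 for Hspa1a and 0.05 ± 0.21 for Dnajc3.

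**Figure D3:**
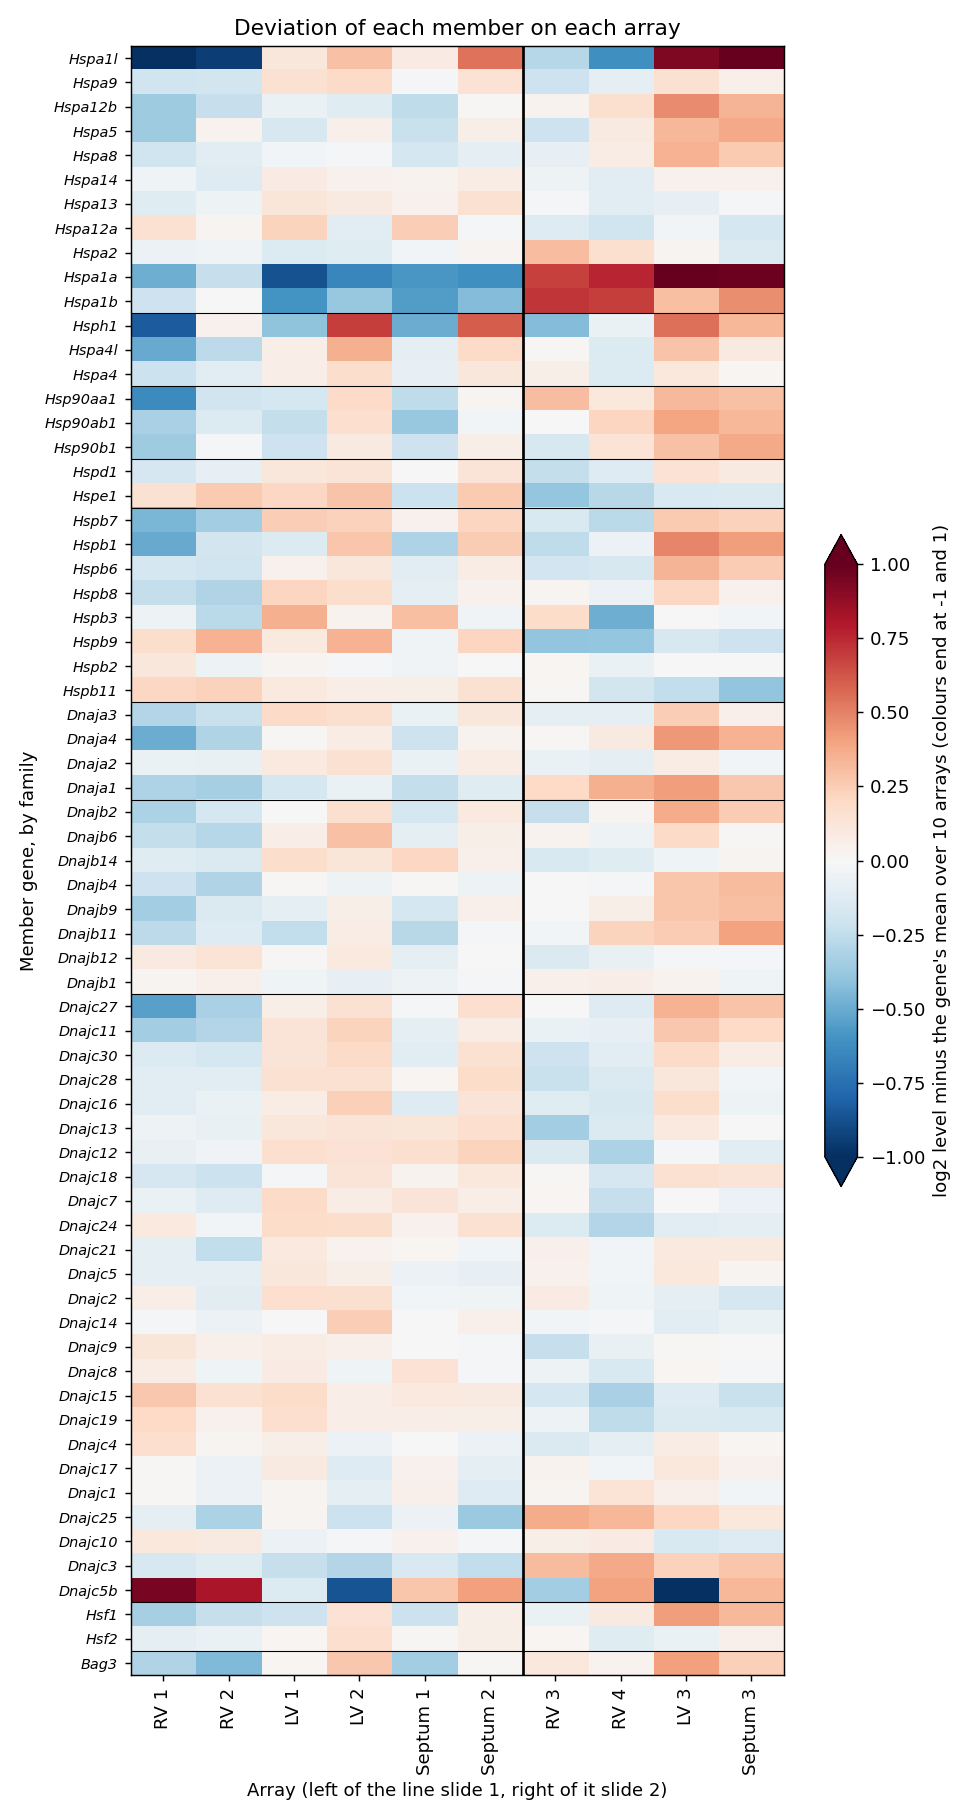
Level of each of the 67 members on each of the 10 arrays, as the log2 deviation from the gene's mean over all arrays (colours end at -1 and 1), with families set apart by thin lines and the slides by a thick one. The RV columns of slide 1 are mostly blue, with median deviations of -0.12 and -0.11. Those of slide 2 are paler and mixed, with medians of -0.03 and -0.07. Hspa1a and Hspa1b change from blue to red between slide 1 and slide 2 in every region.

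Hspa1a and Hspa1b differed more between the slides than between the regions. Hspa1a was at -0.21, 0.05, -0.59, -0.38, -0.31 and -0.34 on the 6 arrays of slide 1 and at 0.96, 1.04, 1.29 and 1.26 on the 4 of slide 2. Every region showed this step, and slide 2 was higher by 1.42 ± 0.12 with region in the model, 2.68-fold (adjusted p = 0.000207). Hspa1b was higher on slide 2 by 0.84 ± 0.07 and Hspa1l by 0.71 ± 0.11. Dnaja1 was between 3.75 and 4.02 on slide 1 and between 4.28 and 4.50 on slide 2, a difference of 0.54 ± 0.06. Dnajc3 lay between 0.04 and 0.21 and then between 0.56 and 0.70, a difference of 0.49 ± 0.04. These groups of arrays did not overlap for Hspa1a, Hspa1b, Dnaja1 or Dnajc3. Hsp90aa1 and Hsp90ab1 were higher by 0.47 ± 0.12 and 0.42 ± 0.11 (adjusted p = 0.0143 and 0.0131), with overlap, and the dimmer probe of Hsp90aa1 gave 0.36 (adjusted p = 0.0588).

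Between the slides 27 of 67 members were called, 19 higher on slide 2 and 8 lower. Of all genes 45.3% were called, 22.6% higher and 22.7% lower. Members lower on slide 2 included Hspe1 at -0.39 ± 0.10, Hspb9 at -0.47 ± 0.09, Hspb11 at -0.37 ± 0.06, Dnajc15 at -0.36 ± 0.06 and Dnajc19 at -0.25 ± 0.06. Hspe1, Dnajc15 and Dnajc19 are mitochondrial, and another mitochondrial member, Dnajc11, was higher by 0.19 ± 0.05. Scaling by the median moved all genes by 0.15 in this comparison. Of the immediate early genes, which respond within minutes to handling or stress, 8 of 18 were called higher on slide 2, while 22.6% of all genes were. Their median was 0.40, and none was called between regions. The slides held different replicate numbers, and the slide, its scan and the tissue samples cannot be told apart.

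**Figure D4:**
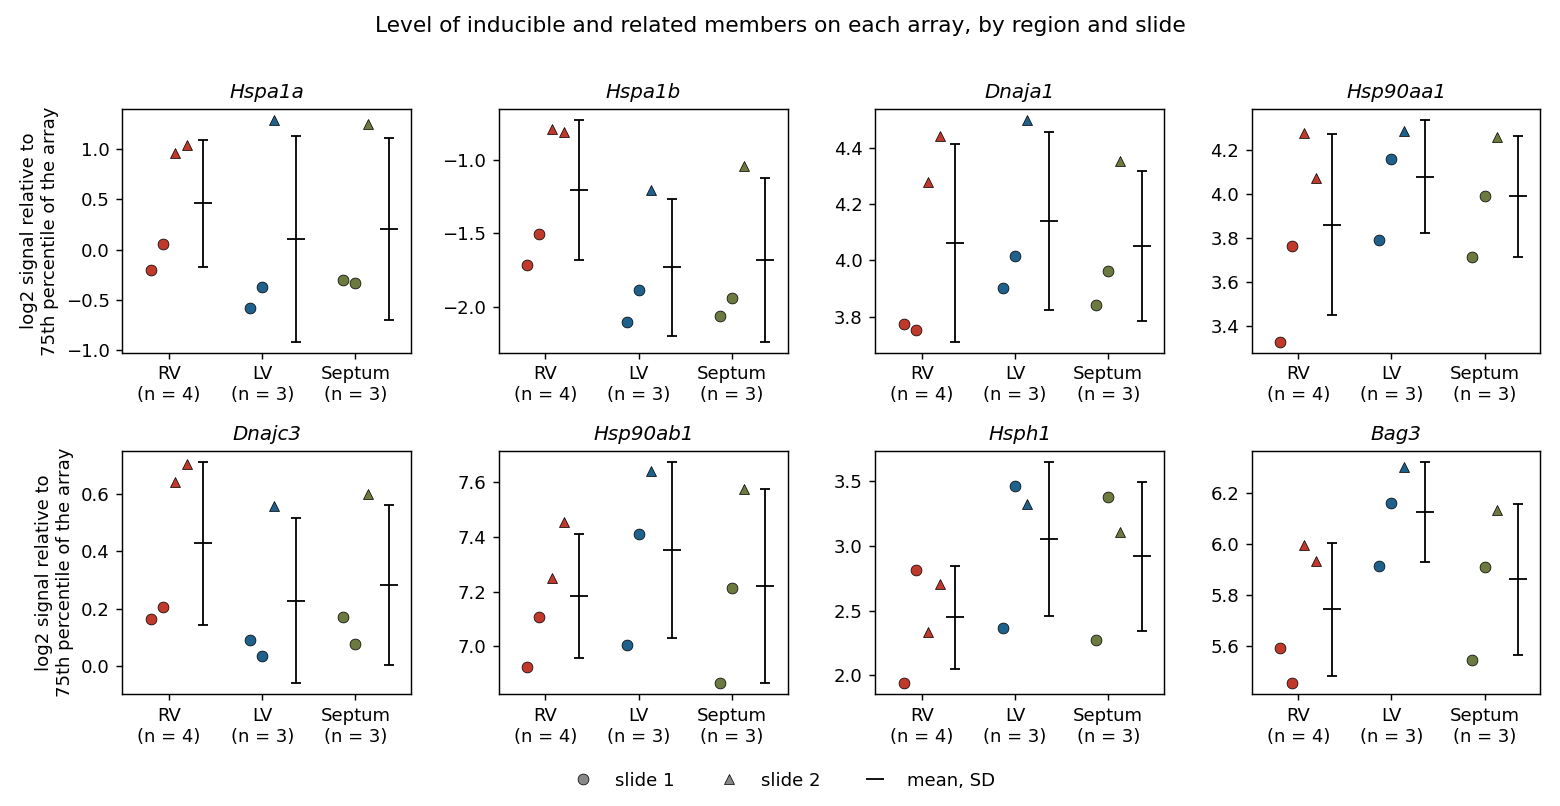
Levels of 8 stress-related members on each array (log2 signal relative to the 75th percentile of the array), by region and slide, with the mean and SD of each region. For Hspa1a, Hspa1b, Dnaja1 and Dnajc3 the triangles of slide 2 lie above the circles of slide 1 in all 3 regions, while for Hsph1 circles and triangles overlap.

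Other folding genes were counted from lists of chaperone partners. Of 53 such genes tested, 1 was called between RV and LV, the Hsp90 partner Cdc37l1, with a difference of -0.41 (adjusted p = 0.0223), while 4.98% of all genes were called. The median over the lists was -0.17. With the slide as a block 11 were called lower and none higher, while 12.5% of all genes were called lower and 8.82% higher. They were the chaperonin subunits Cct5 and Cct8, the stress factors Atf4 and Atf6, the exchange factor Hspbp1, the Hsp90 partners Cdc37l1, Fkbp4, Fkbp5 and Ppid, and the mitochondrial Trap1 and Lonp1. The small heat shock protein Cryab, which the rule did not include, had a difference of -0.25 (adjusted p = 0.187).

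Markers of cell types also differed between the regions. Cardiomyocyte markers had a median difference of -0.18 between RV and LV, the same as the members, and all 14 were tested. The markers were not shifted evenly. Only Mybpc3 was called, at -0.47, while Myh6, Tnni3 and Myl2 were at -0.02, -0.03 and 0.004. A slide block gave 7 calls, all lower. The mean deviation of the 14 markers was between -0.13 and -0.03 in RV, between 0.04 and 0.18 in LV and between -0.06 and 0.14 in Septum. Adipocyte markers were higher in RV, with mean deviations from 1.02 to 1.53 against -1.997 to -0.95 in LV and -0.73 to 0.42 in Septum. Of these 5 of 7 were called against LV, Adipoq at 4.77. Among those called, Adipoq, Plin1 and Pck1 were well above background on only 7, 5 and 5 arrays. Their LV means were -4.67, -5.07 and -5.31. The filter favours a region where such a marker is high, so these calls depend on that selection. Mesothelium markers ran from 0.58 to 2.004 in RV, from -0.61 to 0.20 in LV and from -3.11 to -0.66 in Septum, with 6 of 7 called against Septum. The same limit holds for Lrrn4, well above background on 7 arrays, and for Upk3b, Upk1b, Krt19 and Krt8, on 9. Of the fibroblast markers 3 of 8 were called higher in RV than in LV, with a median of 0.68. Smooth muscle markers had a median of 1.38 and no call, and a slide block gave 4 of 5, all higher. The remaining marker, Acta2, went the other way, at -0.31 ± 0.11, and at -0.29 with that block, without a call. Markers of atrium, blood, brown adipocytes, endothelium, lymphocytes, macrophages and skeletal muscle held no call between RV and LV without a block. A slide block gave 3 lower and 2 higher of the 8 endothelium markers, the atrial Nppa lower (adjusted p = 0.0292) and the macrophage Csf1r higher (0.0214), and none in the other lists named. The part of these differences in the lower chaperone levels of RV was not tested.

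**Figure D5:**
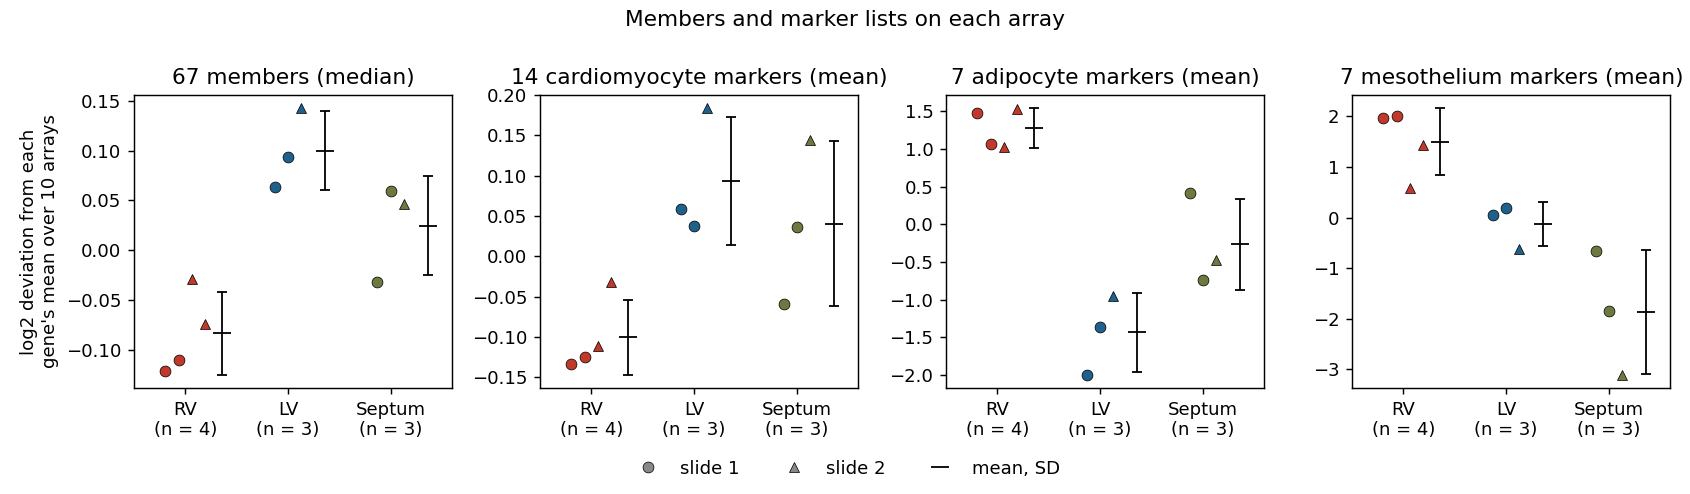
Median deviation of the 67 members, and mean deviation of the cardiomyocyte, adipocyte and mesothelium markers, on each array (log2, from each gene's mean over 10 arrays), with the mean and SD of each region. The members and the cardiomyocyte markers are both lowest in RV, where the members lie between -0.12 and -0.03, and the adipocyte and mesothelium markers are highest there.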

How the data were processed

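Total RNA of heart regions was hybridised to single-colour Agilent mouse arrays, 1 array per sample. Per the file headers, the deposited intensity values came from Agilent Feature Extraction 11.5.1.1, which subtracts background within each array, and no spot was saturated. The authors' value table holds log2 values with the 75th percentile of each array at 0, and served as an alternative. Here, control and outlier spots were removed, spots of a probe were averaged, and the log2 intensity minus the 75th percentile of its array was used. The number of arrays limits the precision. Kept were the 30234 of 56605 probes that passed the background test on all arrays of some region. All 10 arrays entered a limma fit with a mean for each region (limma 3.58.1 in R 4.3.3), with Benjamini-Hochberg adjustment over all kept probes, and an adjusted p under 0.05 was a call. The brightest kept probe stood for a gene. Fits were tested on simulated data.

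Genes were named through RefSeq accessions. The members named are 24 listed genes, those called in each pair of regions, and the 3 largest increases and decreases among members well above background on all arrays of the pair; the others were chosen after their values were seen. Members and gene lists were chosen with earlier results of these data known. The sorting of members by family and compartment was made after their values were seen. Alternatives were other scalings, the value table, normexp background correction with an offset of 50, other filters, other probe rules, a trended robust prior, the methods' analysis of variance with Tukey's test, the slide, the replicate number, and leaving out each array. The normexp correction used median spot signals.

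Whether replicate numbers pair the arrays was checked from deviations around the region means. The 9 pairs of arrays with the same number correlated between 0.36 and 0.64, and the 8 pairs with different numbers on the same slide between 0.09 and 0.58. Each of the 9 arrays with a shared number correlated best with an array of that number. RV replicate 4, which shares its number with no array, correlated at 0.571 with LV replicate 3 and at 0.577 with Septum replicate 3. RV replicate 3 correlated less with these arrays, at 0.426 and 0.444. The numbers were taken as pairs, but the check does not favour RV replicate 3 over RV replicate 4. Calls with the replicate block depend on that choice. The labels do not say that arrays of the same number share an animal.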

Additional observations from a re-analysis of the deposited data

How the results depend on the processing

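The median difference of the members kept its direction under all alternatives, from -0.20 to -0.12 for RV against LV, from -0.16 to -0.08 for RV against Septum and from -0.12 to -0.03 for Septum against LV. The counts of calls did not keep their size. By the F test, called without a block for 1 member, 0 were called with scaling by the median, with no filter, on slide 1 alone or on slide 2 alone, 2 with the mean of probes, 3 by analysis of variance, 5 with a trended robust prior, 16 with the slide as a block, 14 with a replicate block and 20 with a random replicate block. Leaving out 1 array gave 0 to 1, with 0 without RV replicate 1, 2 or 4 or LV replicate 1 or 2. Between RV and LV, with 3 calls, there were 0 with scaling by the median, with no filter or on slide 2 alone, 1 with quantile normalization, 5 with a filter on all arrays, 9 with the trended prior, 26 with the slide block, 24 with the replicate block and 27 with the random block. Leaving out 1 array gave 0 to 4, with 0 without LV replicate 1 and 1 without RV replicate 1, 2 or 4 or LV replicate 2 or 3. Between RV and Septum, with 1 call, there were 0 with scaling by the median, no filter, slide 2 alone or the mean of probes, 2 with normexp or the trended prior, 3 by Tukey's test, 9 with the slide block, 9 with the replicate block, 11 with the random block, and 0 to 1 without 1 array. Between Septum and LV every alternative gave 0. Reversed values were those of Hspa1a on slide 2 alone, at -0.29 (RV minus LV), -0.26 (RV minus Septum) and -0.034 (Septum minus LV), and of Dnajc3 with scaling by the median, at -0.011 (Septum minus LV). Leaving out 1 array gave -0.014 to 0.78 for Hspa1a in RV minus Septum, and in Septum minus LV -0.43 to 0.69 for Hspa1a, -0.14 to 0.38 for Hspa1l and -0.10 to 0.22 for Dnajc3. The causes were not tested. Between the slides 27 members and 45.3% of all genes were called, and with scaling by the median 44 members and 51.6%. The slide comparison and its alternatives were chosen after seeing the data.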
